A study of Mus musculus with 22 samples.

Results

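The regions described here are stretches annotated as gene body that lie within 10 kb of a transcription start site (TSS) and were listed as differing in H3K4me3 between groups of mouse synovial fibroblasts, the mesenchymal cells that line joints. They were taken as every listed region annotated to a gene body with an absolute distance to the TSS under 10000 bases, on any chromosome except 11. There were 2815 such regions among 26201 listed in 4 comparisons. The comparison of Tg197 with wild-type (WT) cells held 1515 of 13603 at 3 weeks, 297 of 2923 at 8 weeks and 734 of 6593 at 11 weeks, and the comparison of TNF-treated with untreated WT cells at 8 weeks held 269 of 3082. The annotation gives the first 3 kb to promoter classes, so the midpoints of these regions ran from 3001.5 to 9997.5 bases downstream of the TSS. Their median length was 1100 bases in each comparison. The midpoint lay outside the assigned gene in 64, 19 and 37 regions at 3, 8 and 11 weeks and in 24 in the TNF comparison. The rule left out 371, 49 and 121 regions of chromosome 11 at 3, 8 and 11 weeks and 73 in the TNF comparison.

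The libraries came from Tg197 mice of 3, 8 and 11 weeks, from TNF-treated WT cells of 8-week mice, and from untreated WT mice of 3, 8 and 11 weeks, with 3 libraries in each of the 7 groups. Tg197 mice carry a human TNF transgene and develop an erosive arthritis, and the study's design text sets these ages as early, established and late disease. All mice were of the CBA x C57BL/6J strain, and all cells had been cultured to passage 4 or 5 before chromatin was taken, so the values describe passaged cells and not the joint itself. The dose and duration of TNF are not given in the labels, and neither is whether the 3 libraries of a group come from separate animals or cultures, so p-values measure the spread between libraries, which may be technical. The untreated WT libraries of 8 weeks serve as the reference in both 8-week comparisons.

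H3K4me3 is a histone mark placed by SET1 and MLL family methyltransferases. It is concentrated over active promoters and the nucleosomes that follow them, and at some highly used genes it spreads well into the gene body. TNF signals through its receptors to NF-kB, whose inhibitors, such as the product of Nfkbie, are themselves switched on by NF-kB, and synovial fibroblasts respond with adhesion molecules, cytokines and matrix-degrading enzymes. A region a few kilobases into a gene therefore sits where the promoter-bound mark thins out.

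The promoters of 4 genes whose gene-body regions are described below are printed first, to show the start sites from which these regions are measured. Each runs from 250 bases before to 50 bases after the TSS in RefSeq's annotation of GRCm38.p6, a later build than the mm9 build of the regions, and capitals mark a match to the NF-kB consensus on either strand. Nfkbie (chr17:45555450-45555749, plus strand), Tm4sf1 (chr3:57301939-57302238, minus strand) and Vcl (chr14:20929148-20929447, plus strand) held 1 match each, starting 106, 28 and 219 bases before the TSS, and Inhba (chr13:16011601-16011900, plus strand) held none.
Nfkbie: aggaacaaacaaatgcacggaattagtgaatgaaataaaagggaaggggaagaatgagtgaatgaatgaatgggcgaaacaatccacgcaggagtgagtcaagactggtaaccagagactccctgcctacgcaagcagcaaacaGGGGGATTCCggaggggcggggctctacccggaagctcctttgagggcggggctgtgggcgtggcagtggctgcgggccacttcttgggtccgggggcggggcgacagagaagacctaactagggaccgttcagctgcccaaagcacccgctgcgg
Tm4sf1: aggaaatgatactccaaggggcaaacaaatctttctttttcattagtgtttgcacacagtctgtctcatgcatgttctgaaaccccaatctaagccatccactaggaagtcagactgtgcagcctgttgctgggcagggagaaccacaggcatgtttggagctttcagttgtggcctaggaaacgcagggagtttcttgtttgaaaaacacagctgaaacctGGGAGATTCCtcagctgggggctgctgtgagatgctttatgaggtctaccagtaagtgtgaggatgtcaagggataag
Vcl: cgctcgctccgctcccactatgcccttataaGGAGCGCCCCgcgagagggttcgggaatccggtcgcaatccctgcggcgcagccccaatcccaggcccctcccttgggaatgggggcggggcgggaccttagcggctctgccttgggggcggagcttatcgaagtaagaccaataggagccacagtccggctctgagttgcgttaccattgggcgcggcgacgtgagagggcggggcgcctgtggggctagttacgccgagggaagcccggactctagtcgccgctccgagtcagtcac
Inhba: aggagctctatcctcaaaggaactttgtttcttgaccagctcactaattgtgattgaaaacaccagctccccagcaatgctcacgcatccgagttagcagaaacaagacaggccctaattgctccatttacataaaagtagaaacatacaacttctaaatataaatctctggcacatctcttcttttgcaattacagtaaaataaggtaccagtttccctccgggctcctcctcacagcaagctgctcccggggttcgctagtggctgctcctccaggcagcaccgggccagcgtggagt

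Over all genes with a RefSeq promoter, 2581 of 27025 (9.55%) held such a match, and the median promoter had 8 CpG dinucleotides. Among genes with a gene-body region that was higher past the authors' adjusted p, the share was 4 of 19 matched genes at 3 weeks, 5 of 18 at 8 weeks, 35 of 153 at 11 weeks and 2 of 7 after TNF. Among genes with a lower region it was 155 of 1044, 27 of 205, 51 of 407 and 22 of 189 in the same order of comparisons. The median CpG number was 20 to 24 in the groups with lower regions or with higher regions in Tg197 cells, and 15 for the few genes higher after TNF, so these are mostly CpG-rich promoters. A match is a string of letters and not a measured binding site, and these shares carry no test.

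Each listed region carries a normalized H3K4me3 count for each of its 6 libraries. The authors listed a region only where its best window differed between groups at a p of at most 0.0001, so regions that did not differ are not in the tables, and a share of listed regions is not a share of the genome. The higher of the 2 group means was at least 108.67, 118.24 and 97.91 normalized counts in the gene-body regions within 10 kb at 3, 8 and 11 weeks and at least 138.04 in the TNF comparison. No such region below that level in both groups was listed. Reads recovered from the values over all listed regions numbered 1560963 to 2780941 per library at 3 weeks, 390496 to 849692 at 8 weeks, 807633 to 1096917 at 11 weeks and 321448 to 1312112 in the TNF comparison. Reads over the gene-body regions within 10 kb numbered 127196 to 225988, 25913 to 49133, 76682 to 110245 and 19514 to 62489 per library. That is a mean of 84.0 to 149, 87.2 to 165, 104 to 150 and 72.5 to 232 reads per region and library, so the depth behind a single region spread most in the TNF comparison.

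Most of these regions carried less H3K4me3 in Tg197 and in TNF-treated cells than in WT cells. By the authors' adjusted p under 0.05, 24 were higher and 1476 lower in Tg197 cells at 3 weeks, 23 higher and 267 lower at 8 weeks, and 193 higher and 525 lower at 11 weeks, while 12 were higher and 251 lower after TNF. The regions listed lower stood at a median of 88.5, 76.1 and 84.6 normalized counts in Tg197 cells against 142, 149 and 132 in WT cells at 3, 8 and 11 weeks, and at 83.1 in TNF-treated against 176 in untreated WT cells. The regions listed higher stood at 208, 211 and 132 in Tg197 cells against 141, 141 and 83.8 in WT cells, and at 345 in TNF-treated against 250 in untreated WT cells. The WT medians of the regions listed higher were thus near those of the regions listed lower at 3 and 8 weeks. They were under them at 11 weeks and over them in the TNF comparison. Regions listed lower reach the listing level through their WT value, and regions listed higher through their Tg197 or TNF-treated value. The listing therefore shapes this order, which is not a trait of the regions in WT cells alone.

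These counts are read against all listed regions of each table. Over all listed regions the authors' adjusted p called 9.71% higher and 89.5% lower at 3 weeks, 20.2% and 77.2% at 8 weeks, 29.8% and 67% at 11 weeks, and 24.6% and 72.3% after TNF. The gene-body regions within 10 kb therefore held a smaller share of higher regions than the whole table at 3 and 8 weeks and after TNF, and a share near the whole table's at 11 weeks. Beyond 10 kb, 34 of 3525, 18 of 520 and 426 of 1768 gene-body regions were higher at 3, 8 and 11 weeks, and 10 of 335 after TNF. The smaller share was thus not particular to the regions within 10 kb.

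A limma fit on log2(normalized count + 0.5) over each whole table, with Benjamini-Hochberg adjustment over every listed region, gave 17 regions that rose and 1482 that fell at 3 weeks, against 4.68% and 88.9% of all listed regions. At 11 weeks 196 rose and 531 fell, against 29.6% and 67.7%. After TNF 10 rose and 180 fell, against 16.5% and 42.6%. At 8 weeks limma called 0 up and 0 down, as it did in the whole table (0% and 0%), although 13 and 197 regions had an unadjusted p under 0.05 in the 2 directions. A weighted limma fit on recovered reads (voom) also called 0 at 8 weeks. The libraries of the 2 groups did not overlap in 1479 of these regions at 3 weeks, or 97.6%, against 92.6% of all listed regions. They did not overlap in 195 at 8 weeks (65.7%, against 63.2%), in 706 at 11 weeks (96.2%, against 95.9%) and in 197 after TNF (73.2%, against 74.2%).

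**Figure D1:**
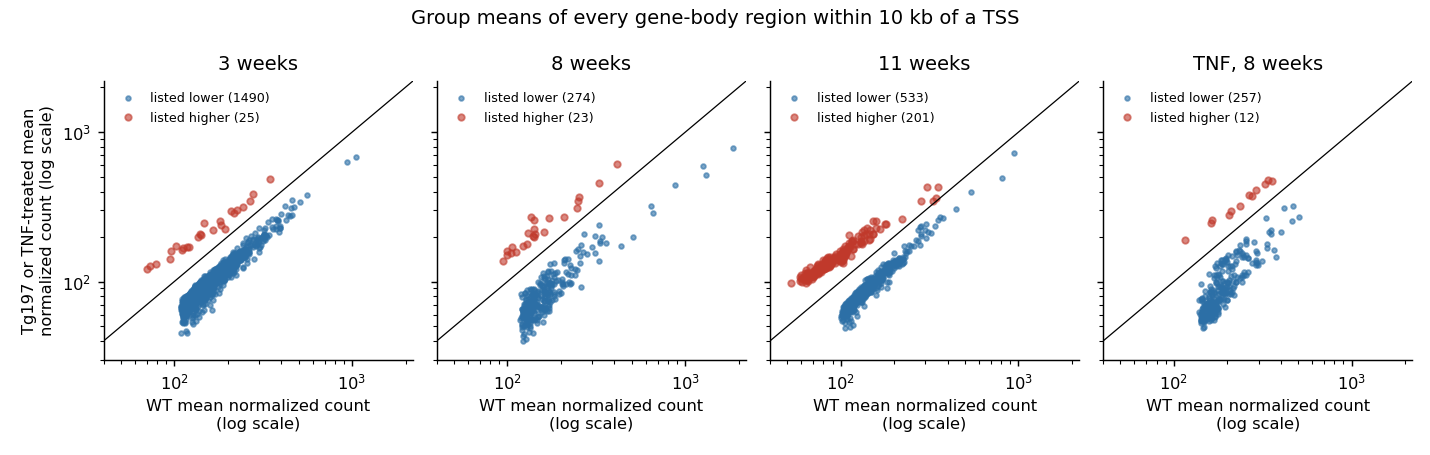
Mean normalized H3K4me3 count of each gene-body region within 10 kb of a TSS in Tg197 or TNF-treated cells (vertical axis, log scale) against WT cells (horizontal axis, log scale), with the diagonal marking equal means. Regions listed lower (1490, 274, 533 and 257) lie under the diagonal, and the fewer listed higher (25, 23, 201 and 12) above it, at 3, 8 and 11 weeks and after TNF.

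The level of each library was set beside its scaling, with the 3 libraries of a group in the order of the table, which gives no replicate numbers. The median region had 94.6, 74.2 and 102 normalized counts in Tg197 libraries at 3 weeks against 139, 136 and 150 in WT libraries, and 96.4, 102 and 91.3 in Tg197 libraries at 11 weeks against 127, 121 and 121 in WT libraries. All Tg197 libraries lay below all WT libraries at both ages. At 8 weeks the medians were 58.2, 87.7 and 88.7 in Tg197 libraries against 183, 163 and 99.0 in WT libraries. After TNF they were 109, 58.8 and 84.2 in TNF-treated libraries against 220, 195 and 119 in untreated WT libraries. The third WT library of 8 weeks thus lay far closer to the Tg197 and TNF-treated libraries than the other two WT libraries did, in both comparisons that use it.

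The authors' scaling, read as the normalized count that 1 read was worth, moved with that library. It was 0.534, 1.35 and 0.792 in Tg197 libraries at 8 weeks against 1.46, 1.57 and 0.717 in WT libraries, and 1.81, 0.363 and 0.550 in TNF-treated libraries against 1.72, 1.84 and 0.811 in untreated WT libraries. The third WT library had the lowest of its group in both, and why it differed was not tested. Leaving it out, limma called 11 regions up and 268 down at 8 weeks, and 9 up and 249 down after TNF. A lower count may mean fewer cells with the mark or less mark per cell, and these cannot be told apart.

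Scaling each library to its median over all listed regions moved the median log2 difference of all listed regions by 0.67, 0.71 and 0.34 at 3, 8 and 11 weeks and by 0.51 after TNF. The median of the gene-body regions within 10 kb was -0.70, -0.92 and -0.61 at 3, 8 and 11 weeks and -1.11 after TNF by the authors' scaling, and -0.03, -0.21, -0.27 and -0.61 by that other scaling. Limma then called 23 up and 0 down at 3 weeks, 16 and 17 at 8 weeks, 201 and 58 at 11 weeks, and 12 and 42 after TNF. When libraries were instead scaled to those listed regions that lie less than 1 kb from a TSS, the medians were -1.03, -1.05, -0.76 and -1.22. Most listed regions were lower, 12246 of 13603 at 3 weeks. Scaling to the median of all listed regions therefore draws the typical region toward no difference by construction. It cannot decide whether single regions fell. Their direction, at 3 weeks above all, is given relative to the authors' scaling. The medians over all listed regions by the authors' scaling were -0.70, -0.86, -0.60 and -0.58, so the gene-body regions within 10 kb lay below them mainly after TNF. Gene-body regions beyond 10 kb lay lower still, at -0.76, -1.06, -0.64 and -1.26, so that position was not particular to the regions within 10 kb.

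A ratio within each library does not depend on its scaling. The summed counts of the gene-body regions within 10 kb over those of listed promoter regions came to 0.295, 0.222 and 0.359 in Tg197 libraries against 0.455, 0.448 and 0.479 in WT libraries at 3 weeks. At 8 weeks the ratio was 0.134, 0.185 and 0.173 in Tg197 libraries against 0.309, 0.287 and 0.204 in WT libraries. At 11 weeks it was 0.267, 0.279 and 0.244 in Tg197 libraries against 0.340, 0.323 and 0.330 in WT libraries. The ratio was lower in every Tg197 library than in every WT library of its age, the third WT library of 8 weeks included. After TNF it was 0.103, 0.0665 and 0.0856 in TNF-treated libraries against 0.172, 0.160 and 0.118 in untreated WT libraries, again without overlap.

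On the log2 scale this ratio differed by -0.69 at 3 weeks, -0.69 at 8 weeks, -0.33 at 11 weeks and -0.83 after TNF, each with an exact two-sided permutation p of 0.1, the smallest that 3 against 3 libraries allow. Over the 3 ages, with libraries relabelled within each age, the mean difference was -0.57 (exact permutation p = 0.00025, the smallest of 8000 relabellings), with the ratio lower in 9 of 9 Tg197 libraries. The regions were listed because they differed between these same libraries, so the ratio is not independent of that selection. At 3 weeks 1490 of 1515 gene-body regions within 10 kb were listed lower, and 1132 of 2609 promoter regions were listed higher. Such a listing lowers the ratio by itself, so these p-values are no evidence of a difference beyond the listing. Set over gene-body regions beyond 10 kb, an alternative added after the data were seen, the ratio differed by +0.06, +0.19, +0.05 and +0.22 (exact permutation p = 0.4, 0.2, 0.1 and 0.2), and by +0.10 over the 3 ages (exact permutation p = 0.0435). Both sets of this ratio were listed on these same libraries, so it too is no evidence of a difference beyond the listing. Gene-body regions beyond 10 kb were also mostly listed lower, 3490 of 3525 at 3 weeks. A lower level beside promoters was thus not particular to the listed regions within 10 kb.

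The authors' enrichment over input gave another reading of the same regions. Its median was 2.29, 2.03 and 1.85 in Tg197 cells against 2.65, 2.64 and 2.76 in WT cells for regions listed lower at 3, 8 and 11 weeks, and 2.64 in TNF-treated against 2.85 in untreated WT cells. Within regions listed lower by count, the enrichment was nonetheless higher in Tg197 or TNF-treated cells in 52 of 1490 at 3 weeks, 23 of 274 at 8 weeks, 0 of 533 at 11 weeks and 89 of 257 after TNF. The log2 enrichment difference exceeded the log2 count difference by a median of 0.49, 0.62 and 0.07 at 3, 8 and 11 weeks and by 1.02 after TNF, so the 2 measures were closest at 11 weeks.

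**Figure D2:**
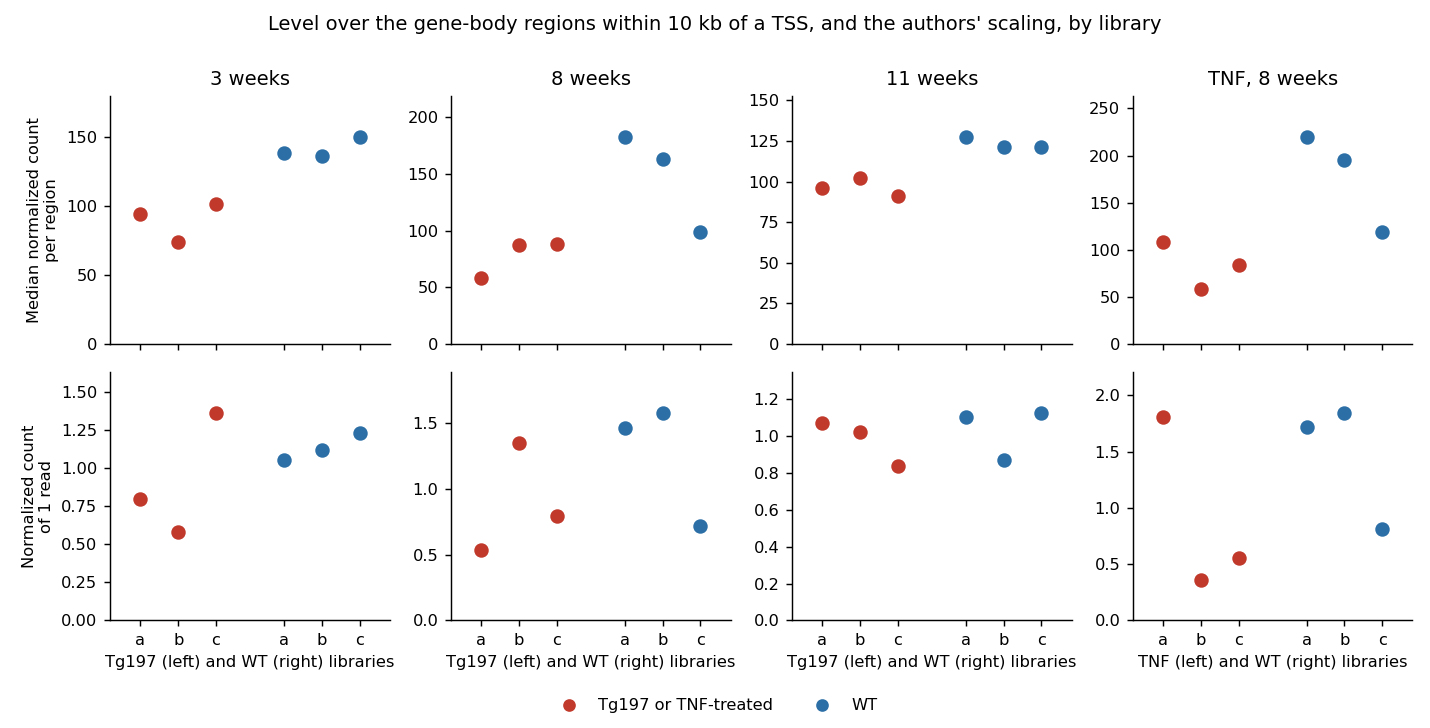
Top, median normalized count over the gene-body regions within 10 kb of a TSS in each library (letters name the 3 values of a group in the order of the table, Tg197 or TNF-treated left and WT right). Bottom, the normalized count that 1 read was worth in the same library. The third WT library of 8 weeks (99.0 and 119 in its 2 comparisons) lies near the Tg197 and TNF-treated libraries and has the lowest value per read of its group.

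Direction turned with distance from the TSS. Within 250 bases downstream, 93.2% of listed regions were higher in Tg197 cells at 3 weeks, 70.3% at 8 weeks and 77.4% at 11 weeks, and 85.0% were higher after TNF. Between 3 and 5 kb the listed higher numbered 12 of 530 at 3 weeks, 19 of 122 at 8 weeks, 94 of 287 at 11 weeks and 7 of 116 after TNF. Between 7 and 10 kb they numbered 5 of 517, 0 of 79, 64 of 246 and 2 of 75. The gene-body regions within 10 kb thus lay past the turn at 3 weeks and after TNF, still held a small higher part at 3 to 5 kb at 8 weeks, and kept a higher part at every distance at 11 weeks.

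Regions at 9 to 10 kb were listed higher in 2 of 166, 0 of 23 and 22 of 70 cases at 3, 8 and 11 weeks and in 0 of 20 after TNF, and those just beyond, at 10 to 11 kb, in 2 of 154, 0 of 28, 18 of 65 and 0 of 19. At the other edge, where the promoter class ends, promoter regions at 2 to 3 kb were listed higher in 18 of 348, 33 of 128 and 79 of 213 cases and in 22 of 131 after TNF, against 6 of 289, 15 of 71, 54 of 154 and 2 of 65 gene-body regions at 3 to 4 kb. The share was lower inside that edge in all 4 comparisons, by the most after TNF and by little at 11 weeks, and these shares carry no test.

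**Figure D3:**
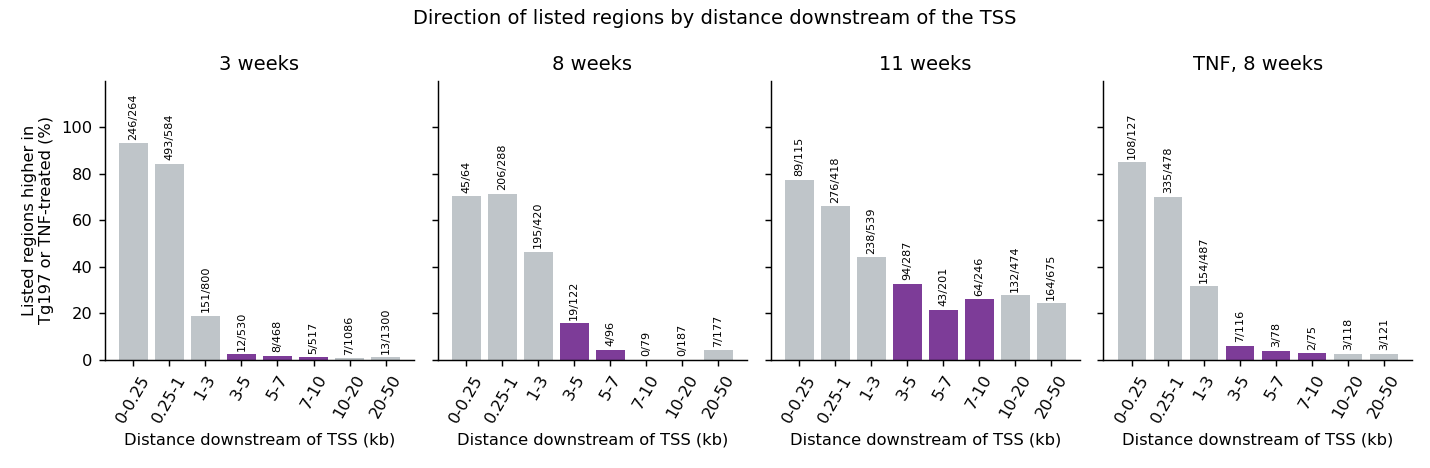
Share of listed regions that were higher in Tg197 or TNF-treated cells (vertical axis, percent) by distance downstream of the TSS (horizontal axis, kb), with the number higher over the number listed on each bar. Gene-body regions within 10 kb are purple, and the share there is 12 of 530, 8 of 468 and 5 of 517 at 3 weeks but 94 of 287, 43 of 201 and 64 of 246 at 11 weeks.

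At 3 weeks 17 regions rose and 1482 fell. Inhba, which encodes the activin A subunit, had 157, 214 and 144 normalized counts in Tg197 libraries against 118, 125 and 110 in WT libraries over chr13:16112201-16113200 (mm9), 6.4 kb into the gene. All 3 Tg197 libraries were above all 3 WT libraries, and the region rose 1.44-fold, or by 0.52 ± 0.19 on the log2 scale (SE, limma adjusted p = 0.0214). Fam65a had 435, 372 and 350 in Tg197 libraries against 274, 248 and 304 in WT libraries (0.48 ± 0.17, limma adjusted p = 0.0203), again with no overlap. Genes were named by a rule that takes the 5 largest rises and 7 largest falls whose groups do not overlap. The rises included Fam129b (log2 difference 0.75), the chromatin protein gene Hmga2 (0.57), the transcription cofactor gene Mn1 (0.57) and the elongation factor gene Ell2 (0.55), with limma adjusted p between 0.0143 and 0.0165. Pdgfra, the receptor that marks fibroblasts, rose too, to 329, 331 and 250 normalized counts in Tg197 libraries against 243, 222 and 210 in WT libraries (0.42 ± 0.18, limma adjusted p = 0.0373), while the other listed fibroblast markers, Col6a1 (-0.64 and -0.71 in its 2 regions) and Vcam1 (-0.81), fell.

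These calls rest on the third WT library of 3 weeks: without it limma called 0 up and 0 down, and without the first or the second WT library 2 and 7 up. The falls were many and of like size. The largest lay in Arhgap8, a GTPase-activating protein gene, with 42.1, 22.0 and 76.0 normalized counts in Tg197 libraries against 106, 107 and 137 in WT libraries (log2 difference -1.47 ± 0.45, limma adjusted p = 0.0149). Ehf, an epithelial ETS factor gene, had 46.1, 22.0 and 67.9 in Tg197 libraries against 106, 104 and 118 in WT libraries (-1.40 ± 0.46, limma adjusted p = 0.0163). In both genes the second Tg197 library was the lowest and no libraries overlapped. Ola1 (-1.31), the Ras pathway scaffold Cnksr1 (-1.30), the macrophage integrin gene Itgam (-1.28), the homeobox gene Vax2 (-1.27) and Zfp872 (-1.27) made up the 7, all with limma adjusted p between 0.0143 and 0.0205. Several of these genes belong to other cell types, and their regions averaged between 109 and 166 normalized counts in WT cells, beside a median of 142 for all regions listed lower at 3 weeks. The higher group mean was at least 108.67 in every gene-body region listed within 10 kb at 3 weeks, and in these regions that group was WT. No region with a weaker WT level was therefore among those listed lower, and the likeness to the median follows in part from the listing.

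At 8 weeks the regions that were higher lay close to the promoter. D4Bwg0951e had 283, 245 and 286 normalized counts in Tg197 libraries against 84.8, 143 and 179 in WT libraries, 3.0 kb from the TSS (log2 difference 1.06 ± 0.29, authors' adjusted p = 0.000174). Rbpj, the DNA-binding effector of Notch signalling, had 233, 259 and 287 in Tg197 libraries against 126, 188 and 109 in WT libraries (0.91 ± 0.25, authors' adjusted p = 0.00103). Vcl, encoding the focal adhesion protein vinculin, had 160, 169 and 180 in Tg197 libraries against 71.6, 148 and 99.7 in WT libraries (0.73 ± 0.30, authors' adjusted p = 0.000194). In all 3 the groups did not overlap and the Tg197 libraries were tighter than the WT libraries. Trps1, a GATA-type repressor gene (0.75), and Ugcg, the gene of glucosylceramide synthase (0.68), were the other two by the naming rule, and limma's adjusted p was 0.0725 for each of the 5.

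Inhba was again among the higher regions at 8 weeks, with 263, 227 and 310 normalized counts in Tg197 libraries against 174, 182 and 157 in WT libraries (0.63 ± 0.21, limma adjusted p = 0.0725, authors' adjusted p = 8.6e-05). Among the lower regions, Ston2, an endocytic adaptor gene, had 28.9, 45.8 and 60.2 in Tg197 libraries against 174, 155 and 88.2 in WT libraries (-1.62 ± 0.46, limma adjusted p = 0.0725). Nlrp6, an inflammasome sensor gene, had 32.1, 31.0 and 61.0 in Tg197 libraries against 158, 149 and 74.6 in WT libraries (-1.61 ± 0.52, limma adjusted p = 0.0725). The third WT library lay between the other WT libraries and the Tg197 libraries in both. Lgtn (-1.53), the prenyl-protein methyltransferase gene Icmt (-1.52), Apbb3 (-1.51), Tmem54 (-1.50) and the phospholipase gene Plcg1 (-1.48) completed the 7 largest differences, and limma's adjusted p was 0.0725 for each.

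At 11 weeks 196 regions rose and 531 fell. Vcam1, the adhesion molecule through which leukocytes bind synovial fibroblasts, had 271, 289 and 199 normalized counts in Tg197 libraries against 168, 140 and 149 in WT libraries, 3.6 kb from its TSS. The groups did not overlap, and the region rose 1.64-fold, or by 0.72 ± 0.14 (limma adjusted p = 0.00434). Il6st, the shared receptor of the interleukin 6 family, had 259, 160 and 193 in Tg197 libraries against 139, 92.4 and 102 in WT libraries (0.87 ± 0.19, limma adjusted p = 0.00434), again with no overlap. The neutrophil chemokine gene Cxcl5 rose by 0.69, while Tgfb3, a TGF-beta gene and the other listed member of the chemokine and cytokine list, fell by 0.73. The antigen transporter gene Tap2 rose by 0.69, the interleukin 4 receptor gene Il4ra by 0.67, the interferon receptor gene Ifnar2 by 0.59 and the receptor kinase gene Axl by 0.44, with limma adjusted p between 0.00434 and 0.00482. Il6st, Il4ra, Ifnar2 and Axl were chosen after their values were seen.

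Nfkbie, whose product holds NF-kB in the cytoplasm, had 298, 165 and 137 normalized counts in Tg197 libraries against 143, 112 and 133 in WT libraries at 11 weeks. The region rose by 0.55 ± 0.23 (limma adjusted p = 0.0312), but the third Tg197 library lay below the first WT library, so the groups overlapped. It overlaps no region of the set listed at 3 weeks or after TNF, so the Nfkbie regions that were lower there are at other places. The 5 largest rises with groups apart were in the lipid enzyme gene Tecr (0.92), the purine synthesis gene Adssl1 (0.90), the ubiquitin-conjugating enzyme gene Ube2e1 (0.90), the neuritin gene Nrn1 (0.88) and Tfdp1, the E2F partner gene (0.87), with limma adjusted p between 0.00434 and 0.0113. Their WT means were low, at 60.1 to 73.6 normalized counts, and their Tg197 means were 107 to 127.

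The largest falls at 11 weeks were led by Gpr35, a G protein-coupled receptor gene, with 19.3, 96.3 and 59.4 normalized counts in Tg197 libraries against 125, 127 and 118 in WT libraries (-1.35 ± 0.42, limma adjusted p = 0.00796). Col11a1, a fibrillar collagen gene of cartilage, had 55.7, 48.1 and 44.4 in Tg197 libraries against 130, 100 and 108 in WT libraries (-1.18 ± 0.20, limma adjusted p = 0.00434). The Tg197 libraries of Col11a1 were tight, whereas those of Gpr35 were spread widely, and neither overlapped its WT libraries. Depdc5 (-1.18), the translation factor gene Eif1a (-1.10), Nif3l1 (-1.05), Usp40 (-1.01) and the microtubule plus-end gene Slain2 (-0.99) were the others, each with a limma adjusted p of 0.00434.

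After TNF the 10 regions that rose were strongly marked, and several lay in genes also higher in a Tg197 comparison. Flrt2, which encodes a membrane protein of cell adhesion and guidance, had 356, 419 and 371 normalized counts in TNF-treated libraries against 261, 274 and 256 in untreated WT libraries (0.53 ± 0.12, limma adjusted p = 0.046). Tm4sf1, a membrane protein gene, had 440, 410 and 377 in TNF-treated libraries against 276, 305 and 287 in untreated WT libraries (0.49 ± 0.12, limma adjusted p = 0.046). Inhba had 461, 505 and 457 in TNF-treated libraries against 335, 366 and 363 in untreated WT libraries (0.42 ± 0.12, limma adjusted p = 0.046). In these 3 genes the TNF-treated libraries were all above the untreated WT libraries, including the third WT library, which did not stand apart here. Trps1 (0.74), the sorting nexin gene Snx18 (0.61) and the transcriptional repressor gene Zeb2 (0.51) rose as well.

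Among the falls after TNF, Nfkbie was a case of 2 directions in 1 gene. Both of its listed gene-body regions within 10 kb were lower, with a median log2 difference of -0.76, and the one with the larger difference follows. Its region 5.0 kb from the TSS had 150, 74.1 and 106 normalized counts in TNF-treated libraries against 328, 272 and 142 in untreated WT libraries (-1.14 ± 0.36, limma adjusted p = 0.046), and the groups overlapped through the third WT library. Its promoter region had 604, 751 and 674 in TNF-treated libraries against 503, 430 and 380 in untreated WT libraries (0.63 ± 0.15, limma adjusted p = 0.046), with no overlap. The Nfkbie promoter printed above, with its single NF-kB match, is that of this gene. The 7 largest falls were in Zfpm1 (-1.63), a GATA cofactor gene, Zfp653 (-1.62), the B7 family gene Cd276 (-1.62), Gpr157 (-1.61), Zfp780b (-1.59), the RNA-binding protein gene Msi1 (-1.59) and the Dicer partner gene Tarbp2 (-1.59), with limma adjusted p between 0.046 and 0.0462. Limma called 0 regions up and 0 down when the second or the third TNF-treated library or the first or second untreated WT library was left out.

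**Figure D4:**
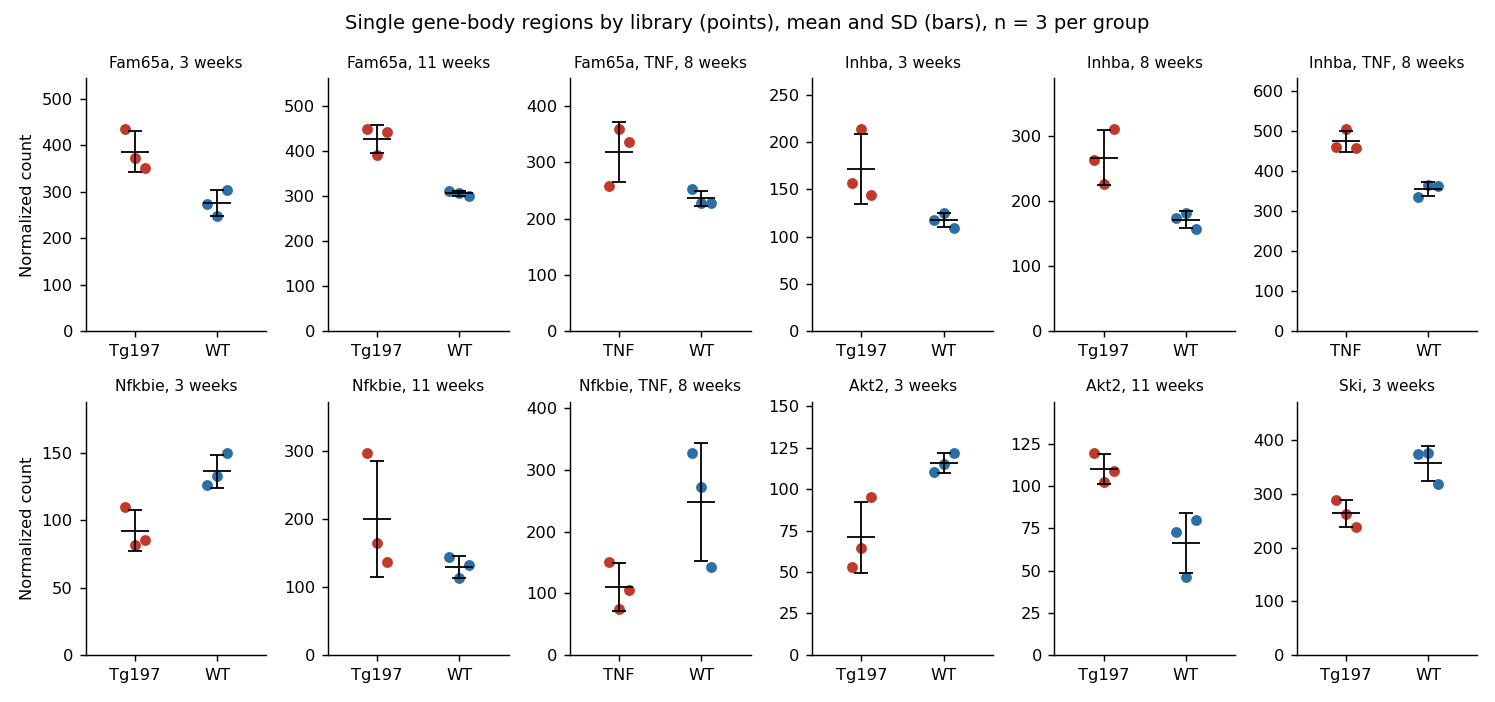
Normalized H3K4me3 count of single gene-body regions within 10 kb of a TSS in each library (points), with the mean (long bar) and SD (whiskers) of 3 libraries, Tg197 or TNF-treated left and WT right. Fam65a and Inhba are higher in every comparison shown. Nfkbie is lower at 3 weeks and after TNF, and higher at 11 weeks at another place in the gene. Akt2 is lower at 3 weeks and higher at 11 weeks in overlapping regions, and Ski is lower at 3 weeks.

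Few of these places were listed at more than 1 age. The 3-week and 11-week tables share no library, and 78 pairs of regions overlapped by at least 1 base, which took in 77 of 1515 (5.08%) regions of 3 weeks and 78 of 734 (10.6%) of 11 weeks. Of these pairs 59 were lower at both ages, 3 were higher at both and 16 were lower at 3 weeks and higher at 11 weeks. Beside them, 1490 of 1515 regions were listed lower at 3 weeks and 201 of 734 were listed higher at 11 weeks. Pairs of opposite direction are thus to be found whether or not the 2 ages are linked. Those higher at both included Fam65a and Micall2. At 11 weeks Fam65a had 449, 390 and 441 normalized counts in Tg197 libraries against 311, 306 and 300 in WT libraries (0.48 ± 0.09, limma adjusted p = 0.00434), the same log2 difference as at 3 weeks. Micall2, an actin and junction regulator gene, rose by 0.54 at 3 weeks and by 0.71 at 11 weeks.

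Among the 16 pairs of opposite direction, Akt2, a kinase gene of insulin signalling, had 53.2, 64.4 and 95.0 normalized counts in Tg197 libraries against 110, 115 and 122 in WT libraries at 3 weeks, and 120, 102 and 109 in Tg197 libraries against 72.8, 46.2 and 79.8 in WT libraries at 11 weeks. The groups were apart at both ages, in opposite directions (-0.75 and 0.77), in regions that shared 400 bases. The 2 tables were normalized apart from each other and the change between them was not tested. Nr2f2, an orphan receptor gene of mesenchyme, differed by -0.57 and 0.55, Arnt, the partner of hypoxia-inducible factors, by -0.65 and 0.64, and Itga5, the fibronectin receptor gene, by -0.68 and 0.92, the last with overlapping libraries at 11 weeks.

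Between 3 and 8 weeks 28 pairs overlapped (1.85% and 9.43% of the regions), of which 25 were lower at both, Inhba was higher at both, and Ap2s1 and Btbd9 differed in direction. In Ap2s1 1 Tg197 library of 3 weeks carried the difference, with 84.3, 70.7 and 236 normalized counts in Tg197 libraries against 67.2, 82.7 and 87.5 in WT libraries. Between 8 and 11 weeks 16 pairs overlapped (5.05% and 2.18%), with 11 lower at both, Flrt2 higher at both and 4 pairs in Dci, Coq5 and Tmem115 lower at 8 weeks and higher at 11 weeks. Ski, whose product represses TGF-beta signalling, was the only gene with an overlapping region at all 3 ages. It had 289, 263 and 239 normalized counts in Tg197 libraries against 374, 377 and 319 in WT libraries at 3 weeks, and differed by -0.43, -0.35 and -0.43 on the log2 scale at 3, 8 and 11 weeks.

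**Figure D5:**
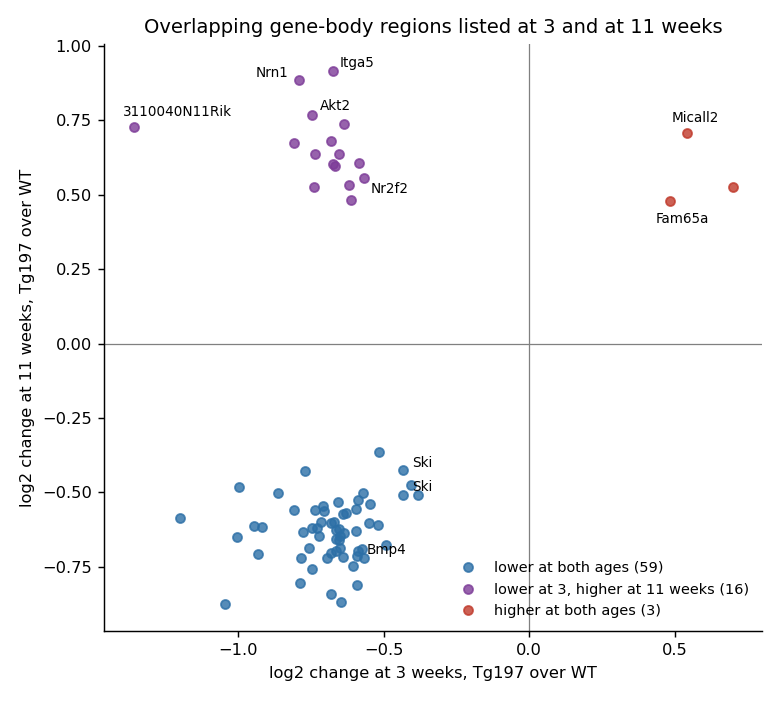
Log2 difference (Tg197 over WT) of overlapping gene-body regions within 10 kb of a TSS at 3 weeks (horizontal axis) and 11 weeks (vertical axis), 1 point for each of 78 pairs. The 59 pairs lower at both ages lie at the lower left, the 16 lower at 3 weeks and higher at 11 weeks at the upper left, and the 3 higher at both ages, Fam65a and Micall2 among them, at the upper right.

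The TNF comparison shares its WT libraries with Tg197 at 8 weeks, so only values are set side by side there. Inhba differed by 0.42 after TNF and by 0.63 in Tg197 cells of 8 weeks, Flrt2 by 0.53 and 0.47, and Trps1 by 0.74 and 0.75. With 3 weeks, which has other WT libraries, 38 pairs overlapped (14.1% of the TNF regions and 2.51% of the 3-week regions). Of these, 33 were lower in both, 4 were higher in both (Arhgef17, Fam65a, Inhba and Tm4sf1), and Fam129b was lower after TNF and higher in Tg197 cells. With 11 weeks 13 pairs overlapped, with 9 lower in both, Fam65a higher in both, and Hyou1, Pkm2 and Sgk1 lower after TNF and higher in Tg197 cells. After TNF Fam65a had 259, 360 and 337 normalized counts in TNF-treated libraries against 252, 228 and 229 in untreated WT libraries (0.42 ± 0.15, limma adjusted p = 0.0481).

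Of genes with at least 2 such regions, 179 of 182 had a single direction at 3 weeks, 11 of 12 at 8 weeks, 27 of 36 at 11 weeks and 18 of 19 after TNF. These stand beside 1490 of 1515, 274 of 297, 533 of 734 and 257 of 269 regions listed lower, so that most pairs of regions share a direction whether or not they lie in 1 gene. Csf1, the macrophage growth factor gene, was the exception at 8 weeks. Its region at 3.3 kb had 289, 225 and 303 normalized counts in Tg197 libraries against 205, 220 and 202 in WT libraries (authors' adjusted p = 0.00229), and its region at 5.3 kb had 85.5, 104 and 107 in Tg197 libraries against 230, 152 and 118 in WT libraries (authors' adjusted p = 0.000174). Tm4sf1 was the exception after TNF, higher at 8.0 kb and lower at 6.6 kb by the authors' adjusted p.

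The promoter of the same gene was called as well in a minority of genes. Listed promoter regions off chromosome 11 belonged to 2430, 1017 and 1490 genes at 3, 8 and 11 weeks and to 1543 after TNF. For scale, 27025 genes had a RefSeq promoter. The authors' adjusted p called 1466, 548, 748 and 883 of these promoter regions lower and 1100, 470, 734 and 677 higher, in the same order. No promoter call accompanied the lower region in 918 of 1287 genes at 3 weeks, 214 of 256 at 8 weeks, 432 of 504 at 11 weeks and 167 of 233 after TNF. Where there was one, it was lower in 295, 35, 51 and 57 genes and higher in 97, 7, 22 and 10. Icam1, an adhesion molecule gene driven by NF-kB, was of the second kind at 3 weeks. Its region 3.5 kb from the TSS had 85.0, 66.7 and 62.5 normalized counts in Tg197 libraries against 111, 112 and 121 in WT libraries (-0.69 ± 0.23, limma adjusted p = 0.0162), and its promoter region had 155, 136 and 153 in Tg197 libraries against 107, 103 and 94.9 in WT libraries (0.54 ± 0.17, limma adjusted p = 0.0156). Neither had overlapping libraries.

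Of the genes with a higher region, 5 of 24, 3 of 22, 26 of 187 and 1 of 10 also had a higher promoter region. At 11 weeks these included Vcam1, Nfkbie, Flrt2, Axl, Il4ra and Ifnar2. The promoter region of Vcam1 had 315, 242 and 301 normalized counts in Tg197 libraries against 205, 193 and 174 in WT libraries (0.58 ± 0.12, limma adjusted p = 0.00434). Zeb2 went the other way at 11 weeks, with a region 3.2 kb into the gene at 272, 254 and 260 in Tg197 libraries against 222, 227 and 219 in WT libraries (0.24 ± 0.09, limma adjusted p = 0.028) and a proximal promoter at 133, 141 and 133 in Tg197 libraries against 203, 203 and 201 in WT libraries (-0.58 ± 0.11, limma adjusted p = 0.00434).

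Gene lists for the pathways of this tissue gave few regions each. Of all listed regions 88.9% fell at 3 weeks, 67.7% at 11 weeks and 42.6% after TNF, so a list whose members all fell at 3 weeks is near that background. Of 29 NF-kB targets and regulators, 6 had a region that fell at 3 weeks (Icam1, Nfkbib, Nfkbie, Tnfrsf1a, Traf2 and Vcam1) and 0 rose, with a median log2 difference over their regions of -0.63 beside -0.70 for all listed regions. At 11 weeks 3 were listed, and Nfkbie and Vcam1 rose while Rela, an NF-kB subunit gene, fell by 0.55, to 187, 184 and 185 normalized counts in Tg197 libraries against 277, 276 and 263 in WT libraries (limma adjusted p = 0.00434). At 8 weeks Tnfrsf1a alone was listed, lower by the authors' adjusted p, and after TNF Nfkbie alone. Vcam1 itself fell at 3 weeks, with 86.6, 48.1 and 58.4 in Tg197 libraries against 108, 104 and 117 in WT libraries, at a place 8.9 kb from the TSS and not the place that rose at 11 weeks. By scaling to all listed regions the list's median at 3 weeks was 0.04. That scaling draws the typical listed region toward no difference by construction, so the list's direction there is relative to the scaling.

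Of 29 extracellular matrix genes, 10 had a region that fell and 0 one that rose at 3 weeks, 2 rose (Fn1 and Loxl1) and 3 fell (Col11a1, Lox and Thbs1) at 11 weeks, and 2 fell after TNF (Col6a1 and Thbs1). At 8 weeks the authors' adjusted p gave Col1a2 higher and Col12a1, Col5a1 and Fbn1 lower. The 3-week median was -0.63, and 0.03 by the other scaling. Of 26 bone and Wnt/BMP genes, 6 fell at 3 weeks (median -0.59, and 0.08 by the other scaling), 4 fell at 11 weeks (Bmp4, Lrp5, Runx2 and Smad6) and 0 were listed at 8 weeks or after TNF. Bmp4, a bone morphogen gene, had 557, 482 and 450 normalized counts in Tg197 libraries against 721, 738 and 965 in WT libraries at 11 weeks (-0.70 ± 0.11, limma adjusted p = 0.00434), without overlap. Runx2, the master regulator of osteoblasts, fell by 0.71 at 11 weeks with overlapping libraries. The 11-week median of this list was -0.69 beside -0.60 for all listed regions, and -0.35 by scaling to all listed regions.

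Of 26 cytoskeleton and adhesion genes, 8 fell at 3 weeks, among them Vim, the gene of vimentin, with 73.1, 60.9 and 65.2 normalized counts in Tg197 libraries against 135, 116 and 134 in WT libraries (-0.95 ± 0.21, limma adjusted p = 0.0143). At 11 weeks Itga5 and Vcl rose and 2 fell, and Vcl had 162, 127 and 109 in Tg197 libraries against 82.8, 79.4 and 84.3 in WT libraries. By the authors' adjusted p, Actn4 was higher at 3 weeks, Vcl higher and Itga11 lower at 8 weeks, and Tln1 lower after TNF, where Myh9 fell (limma adjusted p = 0.0466). Of 26 interferon and antigen presentation genes, 5 fell at 3 weeks and Tap2 rose at 11 weeks, at separate places for Tap2. Of 21 chemokine and cytokine genes, Tnf was listed at 3 weeks, where a region assigned to it, lying 135 bases past the end of its transcript, had 103, 71.9 and 97.8 in Tg197 libraries against 126, 132 and 150 in WT libraries (-0.59 ± 0.20, limma adjusted p = 0.0172). Of 28 homeobox and limb patterning genes, 3 fell at 3 weeks (Pitx1, Tbx15 and Twist2) and 2 at 11 weeks (Hoxa9 and Hoxa10). Prrx1, a homeobox gene of limb mesenchyme, was higher at 8 weeks by the authors' adjusted p (0.33, limma adjusted p = 0.125), and Hoxa10 fell after TNF, where Hoxd13 was lower by the authors' adjusted p alone. Of 19 proteases and inhibitors, 3 fell at 3 weeks, 1 at 11 weeks and 1 after TNF, with Adamts4 lower at 8 weeks by the authors' adjusted p, of 23 cell cycle genes 2, 1 and 0, and of 23 immediate early and feedback genes 1, 1 and 1, and 0 of these lists rose.

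The cell type could be checked only in part, since a marker appears here solely where its gene body differed. Of 10 synovial fibroblast markers, Pdgfra, Col6a1 and Vcam1 were listed at 3 weeks, Vcam1 at 11 weeks and Col6a1 after TNF. Of 7 leukocyte markers Itgam alone was listed, at 3 weeks, and of 5 endothelial and 4 muscle markers none was listed in any comparison. Comp, of 4 cartilage markers, fell at 3 weeks, at 11 weeks and after TNF, and Cdh1, of 5 epithelial and nerve sheath markers, fell at 3 weeks, with 113, 55.1 and 86.9 normalized counts in Tg197 libraries against 135, 170 and 157 in WT libraries. The part of other cells in the lower regions was not tested.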

How the data were processed

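H3K4me3 was profiled by chromatin immunoprecipitation and sequencing in 21 libraries, with 1 input library of mixed genotype, from passaged synovial fibroblasts. Per the labels' protocols, chromatin was precipitated with a Diagenode H3K4me3 antibody and kit and sequenced as paired ends. BWA and the build mm9 are named in the submitters' processing notes, as are TopHat, TopHat2, Cufflinks and Cuffdiff, and which program called the differing regions was not stated in the labels or headers. The region-to-gene annotation is the authors'.

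The authors deposited 4 tables of regions. Per the file headers, each gives normalized counts per library, an averaged signal and an enrichment ratio over input per group, a log2 fold change of the region and of its best window, p-values with adjusted p-values, and a distance to the TSS, which was handled as a score. How the authors normalized the counts is not stated. The 3 values of a group stand in 1 cell without replicate numbers, so libraries could not be matched to samples, and this unit was not the one foreseen when the tests were set. Because 99.99% or more of the values in each library were whole multiples of 1 step (tolerance 0.02 normalized counts), reads were recovered for a weighted fit.

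From these values, limma 3.58.1 in R 4.3.3 was fitted with a mean-variance trend to log2(normalized count + 0.5) over every listed region of a table, with Benjamini-Hochberg adjustment and a threshold of 0.05. The fit was tested on simulated data. Log2 differences are on that scale. Single ratios had exact two-sided permutation tests. Python 3.11.15 with pandas 2.3.3, NumPy 2.4.6 and matplotlib 3.10.9 did the rest. Alternatives were a pseudocount of 5, a minimum mean of 20, 2 other scalings, voom, a limit of 5 kb, an authors' adjusted p of 0.001 and leaving out each library.

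For each comparison, named genes were the 5 largest rises and 7 largest falls past limma's adjusted p (the authors' where limma called none) with groups apart and a mean of at least 20 normalized counts, 1 region per gene and no placeholder symbols, plus up to 4 per gene list, and genes whose regions overlap between comparisons. Other genes were chosen after their values were seen. 1 gene that the rule names is not reported here. The members and lists were chosen with earlier results of these data known. Region sequences were not used here, since the reference promoters are of another build.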

Additional observations from a re-analysis of the deposited data

Results flagged for a closer look

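In 21 pairs of overlapping regions every library of 1 comparison moved one way and every library of the other comparison the opposite way. None of these differences was tested, and the 2 tables of a pair were normalized apart from each other.

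Between 3 and 11 weeks the Tg197 libraries lay below all WT libraries at 3 weeks and above them all at 11 weeks in 13 genes. With 1490 of 1515 regions listed lower at 3 weeks and 201 of 734 listed higher at 11 weeks, such pairs need no link between ages. The log2 difference at 11 weeks exceeded that at 3 weeks by 1.67 in Nrn1, 1.51 in Akt2, 1.48 in Gnb3, 1.37 in Hcn2, 1.37 in Tmem88b and 1.36 in Zfp651. It exceeded it by 1.29 in Arnt, 1.28 in Hyou1, 1.27 in Zscan2, 1.26 in Lmbr1l, 1.19 in Brpf3, 1.12 in Nr2f2 and 1.09 in Inf2. Gnb3 encodes a G protein subunit, Hcn2 a pacemaker channel, Inf2 a formin of the actin cytoskeleton and Hyou1 a chaperone of the endoplasmic reticulum. Scaled to all listed regions, the 3-week difference was above 0 in 6 of these 13 (Arnt, Brpf3, Inf2, Lmbr1l, Nr2f2 and Tmem88b). That scaling draws the typical listed region toward no difference by construction, so these signs cannot decide a direction.

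Between 8 and 11 weeks the Tg197 libraries were lower at 8 weeks and higher at 11 weeks. The gap was 1.88 in Coq5, a gene of coenzyme Q synthesis, 1.62 and 1.72 in the overlapping pairs of Dci, a gene of fatty acid oxidation, and 1.14 in Tmem115.

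Against TNF, Fam129b was higher in Tg197 cells of 3 weeks and lower after TNF, with a gap of 1.65. In Tg197 cells of 11 weeks the gap over TNF-treated cells was 1.93 in Hyou1, 1.31 in Pkm2, the pyruvate kinase gene, and 0.57 in Sgk1, a kinase gene induced by serum and glucocorticoids. Scaled to all listed regions, the TNF difference of Sgk1 was above 0.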

How the results depend on the processing

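Of 197 named regions, pseudocount 5 kept direction and side of the threshold in 196, a minimum mean of 20 in 197, voom in 187, scaling to promoter-near regions (within 1 kb) in 154 and scaling to all listed regions in 97. Scaled to all listed regions, limma called 0 falls at 3 weeks, 16 rises and 17 falls at 8 weeks, 58 falls at 11 weeks and 42 after TNF. Scaled within 1 kb it called 0 rises at 3 weeks, and 2 rises and 210 falls at 8 weeks.

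Scaled to all listed regions, the log2 difference reversed at 3 weeks in Btbd9 (0.11, 0.095 and 0.11), Inf2 (0.056), Lmbr1l (0.0019), Brpf3 (0.081), Arnt (0.016), Tmem88b (0.034), Nr2f2 (0.10 and 0.25), Ski (0.24), Nfkbie (0.099), Tnf (0.076), Tbx15 (0.18), Comp (0.023), Tnfrsf1a (0.13 and 0.22), Traf2 (0.13) and Col6a1 (0.029). It reversed at 8 weeks in Ski (0.36, 0.14 and 0.13), Col12a1 (0.11), Col5a1 (0.11) and Csf1 (0.0065), at 11 weeks in Hoxa10 (0.037), and after TNF in Sgk1 (0.20), Nfkbie (0.12), Hoxd13 (0.12), Myh9 (0.12) and Fam129b (0.0059). The Nfkbie and Fam129b regions that reversed after TNF start at chr17:45700101 and chr2:32734301 and are not those described above. Tm4sf1 at 3 weeks reversed when scaled within 1 kb (-0.13), Btbd9 at 8 weeks by voom (-0.20) and without its second Tg197 library (-0.24, of a range to 0.93 with 1 library left out), and Ap2s1 at 3 weeks without the last of its Tg197 libraries (-0.027, of a range to 0.84). Scaling to all listed regions draws the typical listed region toward no difference by construction, so its reversals cannot decide a direction. The cause was not tested.

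Under 5 kb, 10 regions rose and 514 fell at 3 weeks (11 higher and 515 lower by the authors' adjusted p), 99 were lower at 8 weeks, 93 rose and 193 fell at 11 weeks (90 and 191), and 6 rose and 74 fell after TNF (7 and 107), since fewer regions were counted. An authors' adjusted p of 0.001 left 11 higher and 143 lower at 8 weeks, 92 and 288 at 11 weeks and 7 and 73 after TNF. Overlap of at least 50% of both regions left 35 pairs between 3 and 11 weeks, 6 of them of opposite direction. The ratio to far gene-body regions, chosen after seeing the data, was reversed at 0.058, 0.19 and 0.046 at 3, 8 and 11 weeks, 0.22 after TNF and 0.10 over the ages.

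With 1 library left out, rises ran from 0 to 18 and falls from 0 to 1485 at 3 weeks, 0 to 11 and 0 to 268 at 8 weeks, 175 to 195 and 518 to 529 at 11 weeks, and 0 to 9 and 0 to 249 after TNF. The log2 ratio to promoters ran from -0.85 to -0.50, -0.87 to -0.55, -0.38 to -0.28 and -0.99 to -0.66, and from -0.63 to -0.51 over the ages. No paired analysis was possible because the values of a group carry no replicate numbers. Libraries held a mean of 72.5 to 232 reads per region, and weaker places are not in the tables.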
